A study of Mus musculus with 6 samples.

Results

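The genes described here encode proteins that carry out or steer pre-mRNA splicing: the SR proteins (symbols starting with Srsf), the hnRNP proteins (Hnrnp), the SF3a and SF3b complexes (Sf3) and the protein subunits of the small nuclear ribonucleoproteins (Snrp). Every probe set with exactly 1 gene symbol of that kind was taken, which gave 115 of 22626 probe sets and 44 of 12393 genes. Each gene was represented by its probe set with the highest mean signal. The arrays hold RNA of LSK cells, a bone marrow fraction without lineage markers but with Sca-1 and Kit on the surface, rich in haematopoietic stem and progenitor cells and sorted by flow cytometry. One group, called knockout-labelled here, came from Gfi1 knockout mice (3 samples) and the other from wild-type mice (3 samples), each numbered 5, 7 and 8 in the labels. The sources used here give no strain, age, allele or treatment of the mice, nor whether a sample was 1 mouse or a pool, so p-values measure only the spread between these samples. Labelled RNA was made from 10 ng of total RNA in 2 rounds of amplification, and each sample was read on 1 array.

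An intron is removed in steps. The U1 particle, a small RNA with its own proteins and a ring of Sm proteins, first marks the start of the intron, and the U2 particle then settles on the branch point near its end, helped by the U2AF heterodimer and held there by SF3a and SF3b. SR proteins mostly promote the use of nearby exons, whereas hnRNP proteins coat nascent transcripts and often make exons be skipped. In human myelodysplastic syndromes, SF3B1, SRSF2 and U2AF1 are recurrent targets of mutation. Gfi1 is a zinc finger transcriptional repressor of stem cells, granulocytes and lymphocytes, and it is also known to bind the U2AF subunit encoded by U2af1l4 and to take part in alternative splicing of the CD45 gene, Ptprc. The arrays measure how much of each transcript end was present and do not measure directly how transcripts were spliced.

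The labels were checked first. The 1 probe set of Gfi1 gave signals of 692, 1163 and 1737 on knockout-labelled arrays 5, 7 and 8, and of 632, 608 and 723 on the wild-type arrays in the same order. It was therefore not lower on the knockout-labelled arrays, with a difference of 0.76 ± 0.28 (log2, SE; limma, adjusted p = 0.148, and 0.0354 without knockout-labelled array 5). The sources used here do not place the probe set relative to the deletion. All directions below follow the labels. All 10 LSK marker genes on the array (Cd34, Kit and Flt3 among them) were brighter than the bacterial control probe sets on all 6 arrays. Ly6a, the Sca-1 gene, was not among the 10. Their summed signal was 47241 to 49990 on the knockout-labelled and 54563 to 67540 on the wild-type arrays. That sum includes Ptprc, the CD45 gene, which lymphocytes express too. The mean signal of Ptprc was 15202.5 on the knockout-labelled and 21261 on the wild-type arrays. Kit (-0.71), Flt3 (-1.19) and Hlf (-1.26) were called lower (limma, adjusted p = 0.0381, 0.00515 and 0.00268). Of the 10 genes, 8 lay below 0 and 2 above, Cd48 (0.61) and Slamf1 (0.38), which did not pass. Markers of other cells were read too. The summed signal of 10 neutrophil genes was 7320 to 14702 on the knockout-labelled and 20714 to 41981 on the wild-type arrays, with 5 of 9 tested genes called lower and 1, Mmp8, called higher (2.21). That of 8 monocyte and macrophage genes was 12791 to 15181 and 7243 to 8779, with 3 of 7 tested genes called higher. That of 8 erythroid genes was 8032 to 10412 and 18081 to 32703, with 1 of 7 tested genes called, Car2, whose mean signal was 4224 against 14028, while Epor and Slc4a1 stood at 0.049 and 0.083. The sums of the B cell, T and NK cell and megakaryocyte genes overlapped between the groups. Of 4 T and NK cell genes tested, 2 lay above 0, Nkg7 (0.50) and Gzma (0.090), and 2 below. The 2 below were Cd5 (-0.73) and Klrd1 (-1.41), an NK cell receptor gene, and only Klrd1 was called. Of 9 B cell genes 6 were above the bacterial controls on all 6 arrays, and of 10 T and NK cell genes 3 were, while Pax5 and Cd4, which define B cells and helper T cells, were at or below those controls on all 6. The part of these cells in the values below was not tested. In such bulk samples, fewer cells of a type and less RNA per cell cannot be told apart.

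Was the transcript level of the splicing genes different in the knockout-labelled LSK cells? No gene passed the test. Of 42 genes bright enough to be tested, 0 were called higher and 0 lower (limma, Benjamini-Hochberg adjusted p under 0.05), where 3.9% of all 8239 genes tested were called (1.42% higher, 2.48% lower). At an unadjusted p under 0.05 the counts were 4 higher and 2 lower, which is 14.3% of the members beside 20.6% of all genes (9.41% higher, 11.2% lower). The 3 arrays of one group lay wholly above or below the other 3 for 8 genes (6 higher, 2 lower), or 19% beside 25.4% of all genes (12.4% higher, 13.1% lower). The differences, knockout-labelled minus wild type on the log2(signal + 16) scale, ran from -0.44 to 0.56 with a median of 0.024, and the median over all genes was -0.0069. The members' median was near 0 under each scaling, from -0.0045 with cyclic loess to 0.081 with median centring. 23 genes lay above 0 and 19 below.

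The absence of calls was accompanied by narrow intervals. For 41 of the 42 genes the 95% interval of the difference excluded a 2-fold change in either direction, which held for 80.6% of all genes. The members were also brighter: their probe sets had array medians of 2723 to 3044, against 286 to 335 for all non-control probe sets. The part of brightness in the width of the intervals was not tested. The 1 gene whose interval did not exclude it was Snrpa1, where it reached 1.03 on the log2 scale. The intervals of Sf3b1, Srsf5, Sf3a2, Snrpb2, Hnrnpd and Snrpa1 left out 0, yet their adjusted p-values lay between 0.132 and 0.174. The titles do not say what the sample numbers stand for. Samples of equal number deviated weakly together from their group means (correlations of 0.159 to 0.238), so the fit was repeated with that number as a block (limma). It called 0 genes higher and 1 lower, Srsf5, with an adjusted p of 0.0487, and called 6.36% of all genes (2.34% higher, 4.02% lower).

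**Figure D1:**
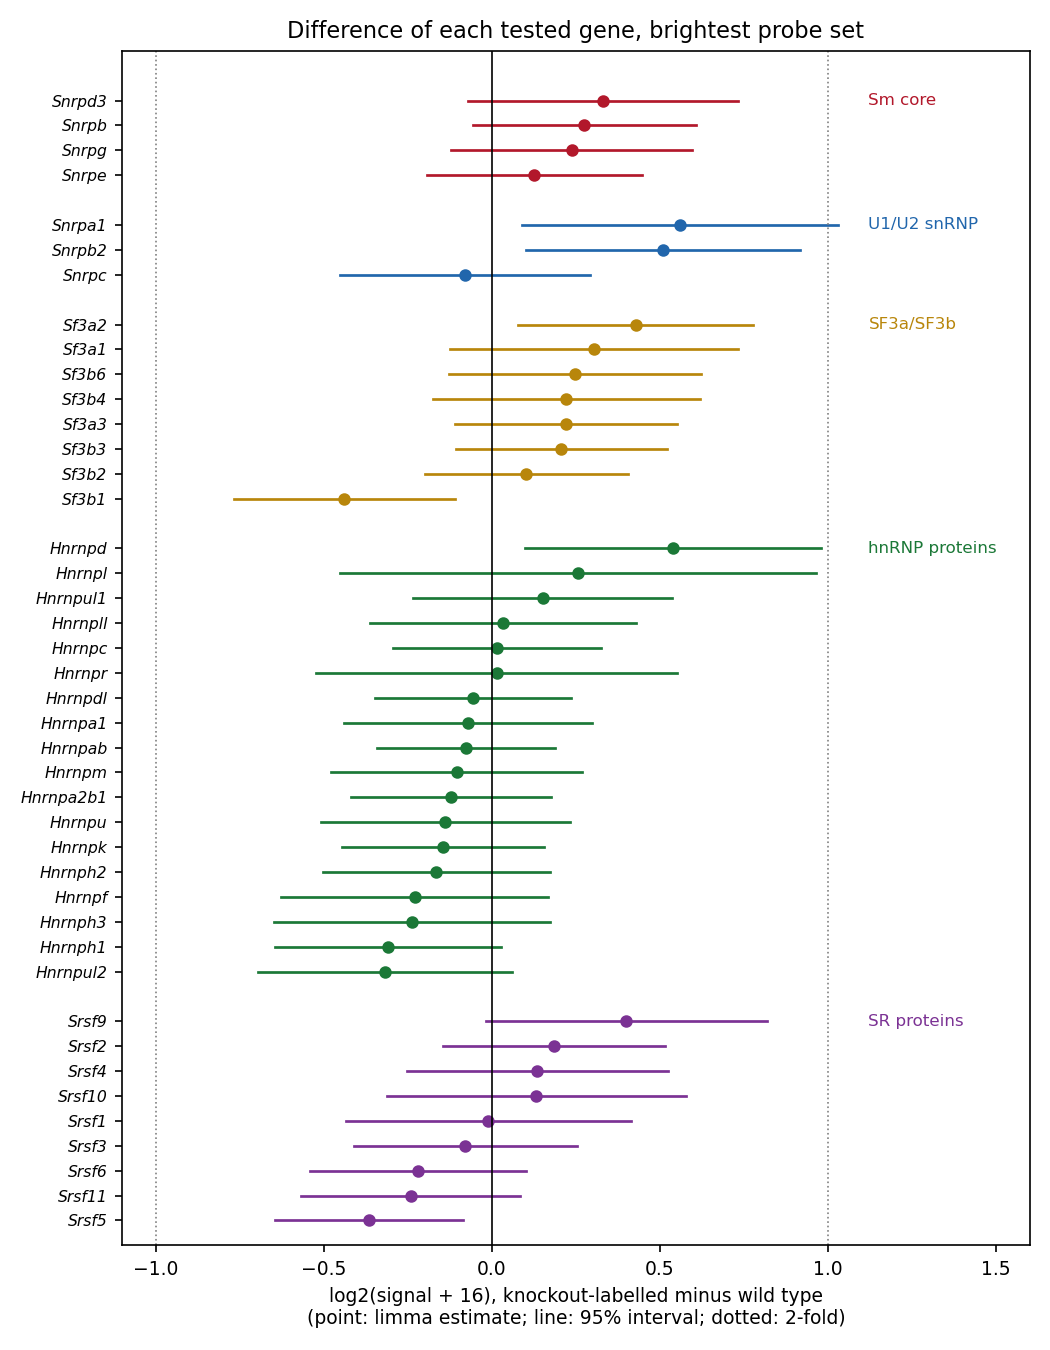
Difference of each of the 42 tested genes by its brightest probe set, in log2 units of signal + 16, knockout-labelled minus wild type (3 arrays each). Points are limma estimates, lines 95% intervals, colours the role of the protein, and dotted lines a 2-fold change. The estimates run from -0.44 (Sf3b1) to 0.56 (Snrpa1), and the interval of Snrpa1 is the 1 that crosses a dotted line.

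The Sm proteins form the heptameric ring on the small nuclear RNAs. 4 of the 5 genes on the array were tested, all 4 lay above 0 with a median of 0.26, and 0 passed the test or reached an unadjusted p under 0.05. Snrpb, which encodes SmB and SmB', read 3847, 4170 and 3735 on knockout-labelled arrays 5, 7 and 8 and 3296, 3143 and 3258 on the wild-type arrays. All 3 knockout-labelled arrays were above all 3 wild-type ones, by 0.27 ± 0.15 (limma, adjusted p = 0.355). Snrpd3 (SmD3) read 4626, 5752 and 4856 against 3315, 5186 and 3768, and its groups overlapped (0.33 ± 0.19, adjusted p = 0.359). Snrpg (0.24) and Snrpe (0.13) overlapped as well. The fifth gene, Snrpn, encodes SmN, a paralogue of SmB that is imprinted and abundant in brain, and its signals of 13.1 to 27.4 were not above the bacterial controls on any array.

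Apart from the Sm genes, 3 genes with symbols starting with Snrp encode proteins of the U1 or U2 particle. Snrpa1, the A' protein of the U2 particle, had the largest positive difference of the 42 genes with all 6 arrays, but stood at 0.30 without wild-type array 7, below Sf3a2 (0.38) and Snrpb2 (0.36) in that fit. Its brightest probe set read 5785, 4747 and 5560 on knockout-labelled arrays 5, 7 and 8 and 5057, 2538 and 3709 on the wild-type arrays. Wild-type array 5 was above knockout-labelled array 7, so the groups overlapped, and the difference of 0.56 ± 0.22 did not pass (95% interval 0.09 to 1.03, limma adjusted p = 0.174). Both dimmer probe sets of Snrpa1 had no overlap. The one named 1417352_s_at read 2623, 2144 and 2965 against 1541, 1365 and 1836, a difference of 0.70 ± 0.19 with an adjusted p of 0.0628, and of 0.0332 with the block. The third, 1417353_x_at, read 970, 1095 and 1372 against 791, 690 and 931 (0.50 ± 0.21, adjusted p = 0.207). Snrpb2 encodes the B'' protein of the U2 particle, the partner of A' on the U2 RNA, and read 2839, 3773 and 3347 against 2696, 1867 and 2455. Its groups did not overlap, by a gap between 2839 and 2696 (0.51 ± 0.19, adjusted p = 0.154). Snrpc, the C protein of the U1 particle, which helps U1 pair with the start of the intron, stood at -0.079 with overlapping groups.

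Among the SF3a and SF3b subunits, 7 of the 8 tested genes had differences above 0, and Sf3b1 had the lowest difference of all 42 genes. The median over the 8 was 0.22, and 0 passed the test. Sf3b1 encodes the SF3b subunit that clamps around the branch point. Its brightest probe set read 5405, 6420 and 5609 on knockout-labelled arrays 5, 7 and 8 and 7306, 8919 and 7457 on the wild-type arrays. All knockout-labelled arrays were below all wild-type ones, and the difference was -0.44 ± 0.15 (95% interval -0.77 to -0.11, limma adjusted p = 0.132). A further probe set of Sf3b1, 1418562_at, read 4362, 5094 and 3169 against 5447, 6578 and 5080, which overlap by a small margin (-0.46 ± 0.19, adjusted p = 0.204). The last Sf3b1 probe set, 1418561_at, was too dim to be tested: its signals of 66.7, 57.8 and 97.8 were not above the bacterial controls on knockout-labelled arrays, while those of 227, 258 and 127 were above them on all 3 wild-type arrays. With the control level in place of the dim signals, it was at least 1.45-fold higher in wild type. That level differed between arrays, at 154, 158 and 100 on the knockout-labelled and 162, 107 and 104 on the wild-type arrays. The 127 of wild-type array 8 was below the level of knockout-labelled arrays 5 and 7.

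Sf3a2, a subunit of the SF3a complex that joins SF3b to U2, read 2974, 3447 and 3253 on the knockout-labelled and 2523, 2224 and 2428 on the wild-type arrays. The groups did not overlap (0.43 ± 0.16, limma adjusted p = 0.162). Its other probe set, 1450576_a_at, stood at -0.13 with overlapping groups. Sf3a1, which carries the SURP modules of SF3a, read 1551, 1123 and 1523 against 994, 1167 and 1208 and overlapped (0.30 ± 0.20, adjusted p = 0.442). Sf3b3, a large scaffold subunit, was without overlap, with 6221, 5797 and 6259 against 4892, 5546 and 5406, at a difference of 0.21 ± 0.15 (adjusted p = 0.482). Sf3a3, Sf3b4 and Sf3b6 stood at 0.22, 0.22 and 0.25 and Sf3b2 at 0.10, all with overlapping groups. Sf3b5, the smallest subunit, fell below the brightness filter, with signals of 28.4, 76.3 and 317 against 187, 75.6 and 240, and has no reliable level here.

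Of 9 SR protein genes, 4 lay above 0 and 5 below, with a median of -0.010 that turned to 0.046 under median centring, and 0 passed the test without the block. The lowest was Srsf5, an SR protein that promotes exon inclusion. It had 1 probe set, which read 18566, 22132 and 20253 on knockout-labelled arrays 5, 7 and 8 and 24138, 28157 and 26160 on the wild-type arrays, so the groups lay apart. The difference was -0.36 ± 0.13 (95% interval -0.64 to -0.09, limma adjusted p = 0.137, and 0.0487 with the block). Srsf9, a small SR protein, lay apart in the other direction, with 1311, 1341 and 1344 against 939, 881 and 1231 (0.40 ± 0.19, adjusted p = 0.281). Srsf11 (9056 to 11796 in wild type, 7791 to 9156 in the knockout-labelled arrays) and Srsf6 stood at -0.24 and -0.22 with overlapping groups.

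Srsf2, whose human counterpart is mutated in myeloid disease, read 21944, 18101 and 18019 on the knockout-labelled arrays and 20564, 14722 and 16133 on the wild-type arrays. The groups overlapped and the difference was 0.18 ± 0.15 (limma, adjusted p = 0.564), from 0.081 without wild-type array 7 to 0.32 without wild-type array 5. The 4 tested probe sets of Srsf2 ran from -0.49 to 0.50, with 3 above 0 and 1 below. Srsf3, the smallest SR protein, which also serves mRNA export, had 6 tested probe sets that all lay below 0, from -0.37 to -0.079, each with overlapping groups. All 4 probe sets of Srsf10, an SR protein that represses splicing when dephosphorylated, lay above 0, from 0.026 to 0.62. Srsf1 and Srsf4 stood at -0.010 and 0.14.

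The 18 hnRNP genes had a median of -0.091, with 12 below 0 and 6 above, and 0 passed the test. Hnrnpd, which encodes AUF1, a protein that binds AU-rich elements and speeds mRNA decay, was the 1 hnRNP gene whose groups did not overlap. It read 1155, 1411 and 1719 on the knockout-labelled and 960, 1083 and 864 on the wild-type arrays, a difference of 0.54 ± 0.20 (95% interval 0.10 to 0.98, limma adjusted p = 0.162). The lowest was Hnrnpul2, a relative of the hnRNP U scaffold protein, with 5538, 6741 and 4664 against 5936, 7163 and 7961 (-0.32 ± 0.18, adjusted p = 0.348). Hnrnph1, Hnrnph3 and Hnrnpf encode proteins that bind runs of G, and stood at -0.31, -0.24 and -0.23 with overlapping groups. Without wild-type array 8 Hnrnph3 stood at -0.098, and without wild-type array 5 Hnrnpf stood at -0.043. Hnrnpk, a poly-C binding protein, stood at -0.15 ± 0.14, with 15138 to 17003 against 15490 to 20148.

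Hnrnpll encodes hnRNP LL, which is known to make CD45 exons be skipped in activated lymphocytes. It read 3511, 4275 and 3713 on the knockout-labelled and 3004, 3764 and 4599 on the wild-type arrays. The groups overlapped widely, at 0.03 ± 0.18 (95% interval -0.36 to 0.43, limma adjusted p = 0.951), and the sign turned when knockout-labelled array 7 or wild-type array 5 was left out. Hnrnpu, a nuclear scaffold protein, stood at -0.14 ± 0.17 by its brightest probe set, with a sign that turned without wild-type array 5, and Hnrnpa2b1, which also sorts RNA for export and packaging, at -0.12 ± 0.14.

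**Figure D2:**
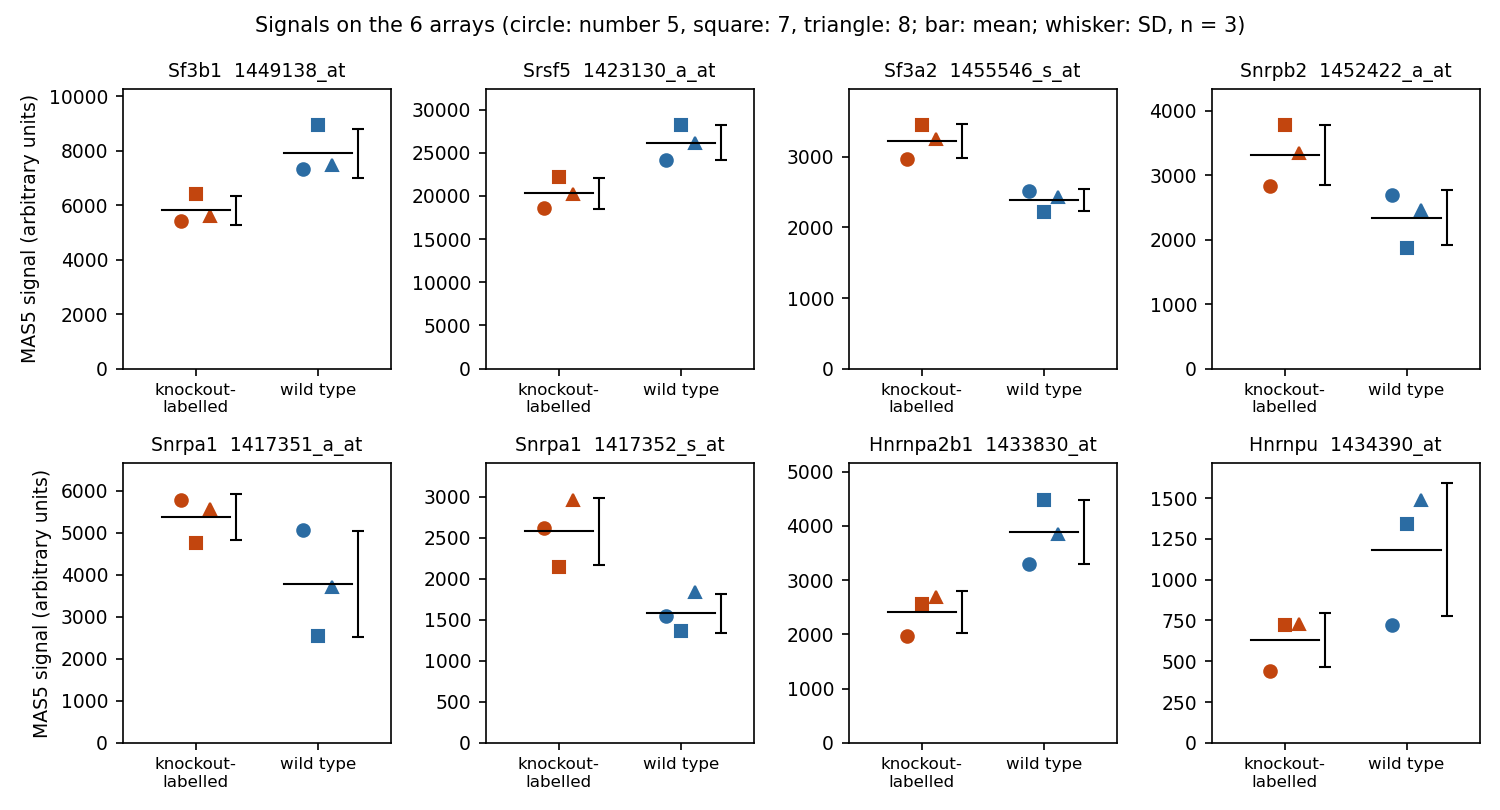
MAS5 signal in arbitrary units on each of the 6 arrays for 8 probe sets, with knockout-labelled arrays in orange and wild-type arrays in blue. Circles, squares and triangles are samples 5, 7 and 8, horizontal bars are means and whiskers the SD (n = 3). Sf3b1, Srsf5, Sf3a2, Snrpb2, the dimmer Snrpa1 probe set and that of Hnrnpa2b1 show no overlap, and the brightest Snrpa1 probe set and that of Hnrnpu do.

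Summarised by array, the roles did not follow the same pattern. Levels were taken relative to each gene's own mean over the 6 arrays, and the median over the genes of a role was read for every array. The median of the SF3 genes was 0.14, -0.0079 and 0.17 on knockout-labelled arrays 5, 7 and 8, and -0.11, -0.090 and -0.076 on the wild-type arrays. For the 4 Sm genes it was 0.12, 0.11 and 0.079 against 0.032, -0.23 and -0.18. The hnRNP medians overlapped, with -0.14, 0.088 and -0.083 against 0.10, 0.0013 and -0.029, and so did those of the SR genes. The U1 and U2 medians rested on 3 genes, and wild-type array 7 was the lowest of them at -0.56. These medians are a description of how the genes were spread, and no test was made of them.

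**Figure D3:**
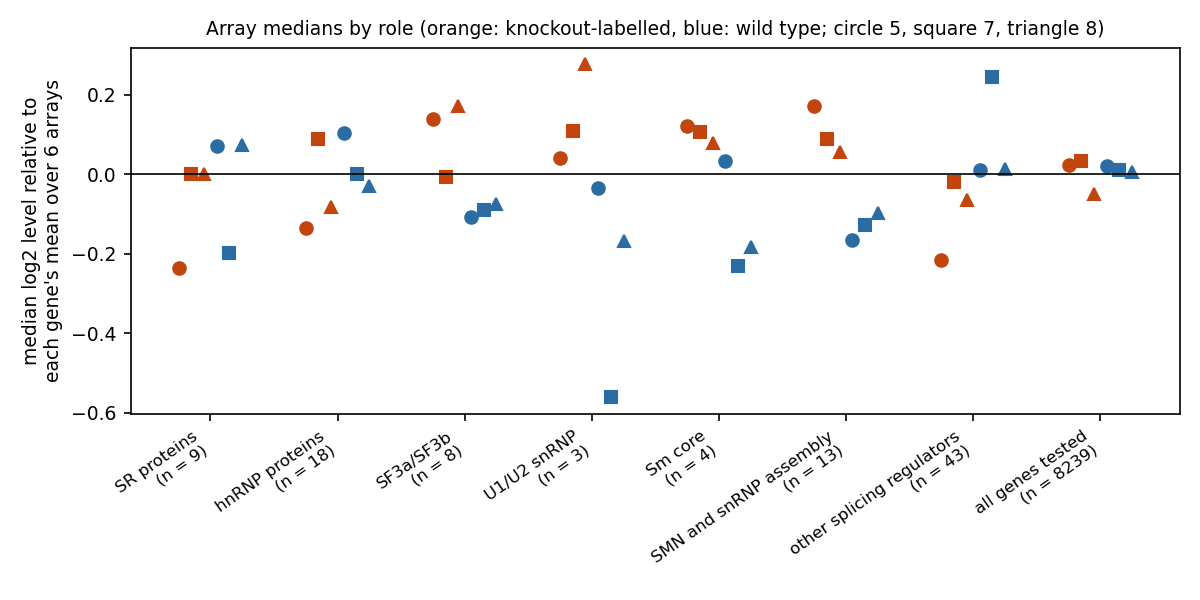
Median log2 level of the genes of each role on each array, relative to the mean of each gene over the 6 arrays (n genes under each name). Orange symbols are knockout-labelled and blue symbols wild-type arrays, and circles, squares and triangles are samples 5, 7 and 8. The SF3, U1/U2, Sm and SMN medians are higher on the 3 knockout-labelled arrays, the regulator medians lower, and the SR and hnRNP medians overlap.

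Most of these genes were read by several probe sets, 7 at most, which can differ in the transcript end or isoform they detect. Of 105 probe sets tested, 0 were called in either direction (limma), where 3.63% of all probe sets tested were (1.44% higher, 2.19% lower). At an unadjusted p under 0.05 there were 9 higher and 7 lower, 15.2% beside 19.6% of all probe sets (9.08% higher, 10.5% lower). With the block, 1 was called higher (Snrpa1, 1417352_s_at) and 3 lower (Srsf5, Hnrnpa2b1 and Hnrnpu), beside 5.89% of all (2.36% higher, 3.53% lower). The lowest adjusted p without the block belonged to 1433830_at of Hnrnpa2b1, with signals of 1970, 2560 and 2696 on the knockout-labelled and 3305, 4483 and 3859 on the wild-type arrays. Its groups did not overlap (-0.69 ± 0.19, adjusted p = 0.0593, and 0.0300 with the block). It also passed among the 40% brightest probe sets (0.0498), where 185 of all probe sets were called higher and 265 lower. Among the plain probe sets, whose names end in _at with no further letter, it passed too (0.0494). The Hnrnpu probe set 1434390_at read 439, 724 and 729 against 720, 1340 and 1491, which overlap (-0.86 ± 0.29, adjusted p = 0.116, and 0.0286 with the block).

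Leaving out 1 array brought a few more probe sets past the threshold. Without knockout-labelled array 7 this was 1428225_s_at of Hnrnpdl (-0.94, limma adjusted p = 0.0494). Without wild-type array 5 it was 1434390_at of Hnrnpu (adjusted p = 0.0317). Without wild-type array 8 they were 1417352_s_at of Snrpa1 (0.0465) and 1431349_at of Hnrnpab (0.0499). Of all 13575 probe sets tested, 66 were called higher and 131 lower in the first of these fits. The calls were 126 higher and 277 lower in the second, and 266 and 282 in the third.

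Whether the probe sets of a gene differed unequally was tested directly, by the log2 ratio of each dimmer probe set to the brightest of its gene. Of 63 such pairs in 28 genes, 0 were called (limma), where 0.0477% of all 4189 pairs were, and 3 pairs (4.76%) had an unadjusted p under 0.05 beside 7.97% of all pairs. Those 3 were 1431349_at of Hnrnpab, whose ratio was higher by 0.94 ± 0.37 on the knockout-labelled arrays, 1450576_a_at of Sf3a2, lower by 0.56 ± 0.24 (difference -0.56), and 1433830_at of Hnrnpa2b1 (-0.57 ± 0.25), with adjusted p-values of 0.598, 0.615 and 0.615. For 54 of the 63 pairs the 95% interval of the difference in ratio lay within 1 log2 unit either way. The Hnrnpab probe set read 891, 451 and 916 on the knockout-labelled and 321, 288 and 624 on the wild-type arrays, while the brightest of that gene, which encodes a single-strand nucleic acid binding protein, read 39433, 35158 and 32829 against 40723, 36544 and 35912.

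By direction alone, all tested probe sets lay above 0 in 8 genes (Sf3a1, Sf3a3, Sf3b2, Sf3b6, Snrpa1, Snrpd3, Snrpg and Srsf10) and below 0 in 5 (Hnrnpa1, Hnrnph1, Sf3b1, Srsf11 and Srsf3). In 15 genes they lay on both sides, and 14 genes had 1 tested probe set. The hnRNP genes with many probe sets were among the split ones: Hnrnpdl had 5 of 6 below 0, Hnrnpu 3 of 5 and Hnrnpab 3 of 6.

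**Figure D4:**
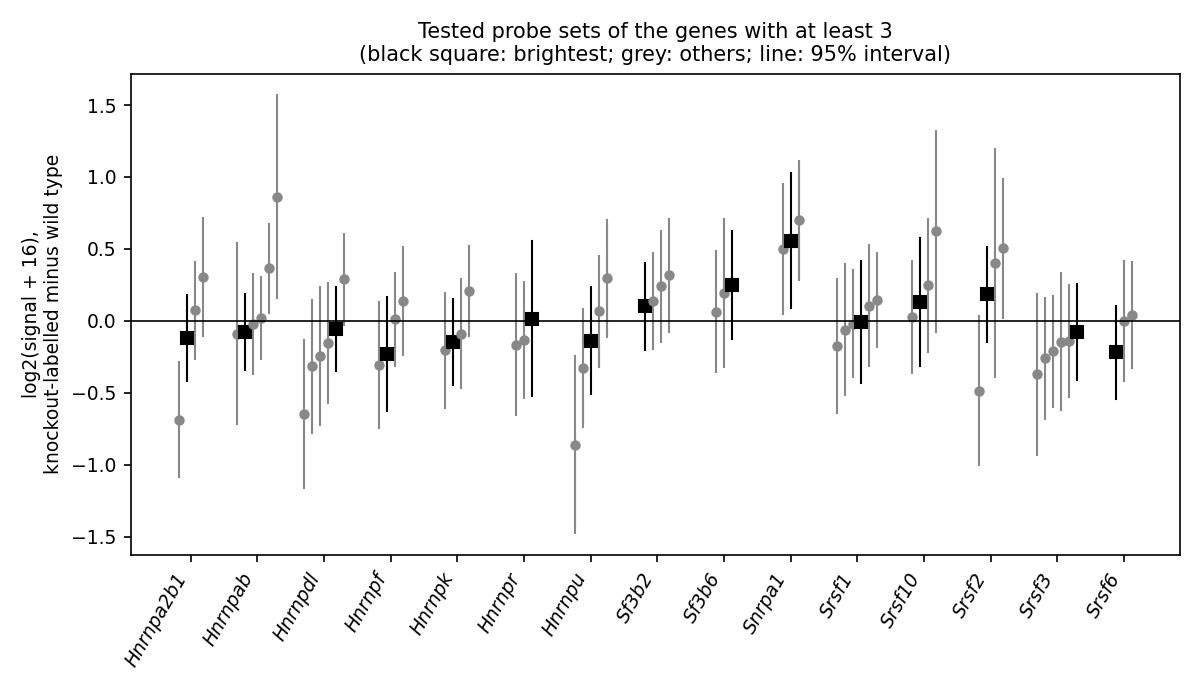
Difference of every tested probe set (log2 of signal + 16, knockout-labelled minus wild type, 3 arrays each) for the genes with at least 3 tested probe sets. Black squares are the brightest probe set of a gene, grey circles the others, and lines 95% intervals. All 6 of Srsf3 lie below 0 and all 3 of Snrpa1 above, while those of Hnrnpa2b1, Hnrnpu and Hnrnpab spread over both sides.

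The promoters of the genes were read for what they share. RefSeq (GRCm38.p6) holds 55 promoter entries for 39 of the 44 genes, and the 250 bases before each start had a median GC content of 60.4%, beside 55.6% for promoters of protein-coding genes. A few short motifs were searched on both strands, as exact letters. CCGGAAG, a core recognised by ETS factors, was found in 18 entries (32.7%) of 14 genes, beside 8.98% of protein-coding and 6.91% of all 32851 promoters. AAATCA, part of the GFI1 consensus, was found in 7.27%, beside 11.2% of protein-coding promoters. CCAAT was in 43.6% (35.4%), the E-box CACGTG in 3.64% (6.63%). The NRF1 consensus, which allows either pyrimidine or purine at its degenerate positions, was in 5.45% (1.42%), and its inner letters alone, as exact letters with no degenerate position, in 1.82% (1.07%). The 2 forms overlap in letters, but here the consensus was in Hnrnph1, Sf3a2 and Snrpb2 and the inner form in Srsf11. A match is a string, not a measured binding site. The 3 sequences below belong to the gene with the lowest difference, to the gene called with the block and to the gene with the highest. They run 5' to 3' on the strand of the gene and end at the base before its start, at chr1:55027479-55027728 (minus strand), chr12:80945249-80945498 (plus strand) and chr7:66060086-66060335 (plus strand). Capitals mark matches to any of these motifs. Srsf5 holds CTTCCGG and CCGGAAG, the ETS core on either strand, and the other two hold no match.
Sf3b1: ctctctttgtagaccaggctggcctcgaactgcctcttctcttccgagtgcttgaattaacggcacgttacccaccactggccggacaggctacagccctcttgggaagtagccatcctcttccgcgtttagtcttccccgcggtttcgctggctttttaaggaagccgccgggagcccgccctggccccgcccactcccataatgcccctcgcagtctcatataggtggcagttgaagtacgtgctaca
Srsf5: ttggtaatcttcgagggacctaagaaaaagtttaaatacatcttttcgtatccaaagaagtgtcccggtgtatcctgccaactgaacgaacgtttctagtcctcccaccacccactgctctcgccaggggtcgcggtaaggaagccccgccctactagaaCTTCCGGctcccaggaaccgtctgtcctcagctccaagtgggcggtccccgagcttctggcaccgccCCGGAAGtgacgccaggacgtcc
Snrpa1: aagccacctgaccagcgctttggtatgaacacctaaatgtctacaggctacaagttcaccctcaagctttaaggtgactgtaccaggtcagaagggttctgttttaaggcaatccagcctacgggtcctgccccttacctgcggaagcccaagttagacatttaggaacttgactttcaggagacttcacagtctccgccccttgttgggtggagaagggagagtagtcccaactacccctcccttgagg

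Genes that work beside these were counted from 3 further lists. Of 61 other spliceosome genes tested, 0 were called (limma), 6 had an unadjusted p under 0.05 in the higher and 2 in the lower direction, and the median difference was 0.089. The 8 are 13.1% of the list, beside 20.6% of all genes at that p, and 3.9% of all genes were called. Prpf31, a protein of the tri-snRNP, was called higher with the block (0.72 ± 0.19, adjusted p = 0.0529 without and 0.0430 with it). Of 13 tested genes that assemble the particles, the SMN complex and its helpers, 0 were called, 11 lay above 0 and the median was 0.23, and at an unadjusted p under 0.05 there were 2 higher and 0 lower (15.4%). Clns1a, which encodes pICln, a chaperone of Sm proteins, had a dimmer probe set (1427548_a_at) that rose, from 1782, 1942 and 3001 on the wild-type to 3845, 4831 and 3881 on the knockout-labelled arrays (0.93, limma adjusted p = 0.0270). That call was lost without any 1 of the arrays but wild-type array 8 (adjusted p 0.0548 to 0.117), and also with no filter (0.0685) and with eBayes without trend (0.0855). Its brightest probe set stood at 0.29 ± 0.13 and did not pass (adjusted p = 0.258).

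The list of other splicing regulators held calls. Of 43 tested genes 3 were lower and 0 higher (limma, where 2.48% of all genes were called lower), 33 lay below 0, and the median was -0.21. At an unadjusted p under 0.05 there were 2 higher and 12 lower, 32.6% beside 20.6% of all genes (9.41% higher, 11.2% lower). Clk1, a kinase that phosphorylates SR proteins, fell, with 3505, 4552 and 4305 on the knockout-labelled and 6112, 9641 and 6392 on the wild-type arrays (-0.82 ± 0.19, adjusted p = 0.0339). Srpk2, another SR protein kinase, fell by its brightest probe set from 3068, 4321 and 3271 on the wild-type to 1987, 2333 and 2062 on the knockout-labelled arrays (-0.72 ± 0.18, adjusted p = 0.0442). Its other tested probe sets, 1417134_at, 1417136_s_at and 1448603_at, stood at -0.38, -0.45 and 0.46 and did not pass. Ptbp2, a pyrimidine tract binding protein best known from neurons, read 908, 814 and 720 against 1271, 1975 and 1315 (-0.86 ± 0.22, adjusted p = 0.0441). Its dimmer probe set, 1423471_at, stood at -0.26 and did not pass. By the brightest probe set of all 3 genes the groups lay apart and wild-type array 7 was the highest of the 6. The adjusted p-values reached 0.147, 0.191 and 0.197 without wild-type array 7, and no call of the 3 held without any 1 of the knockout-labelled arrays 5, 7 or 8. All 3 were also lost with no filter, with median centring and with eBayes without trend (adjusted p 0.0707 to 0.111), and 1 more array ended the Srpk2 call, wild-type array 8 (0.0534). Quantile normalization ended the Ptbp2 call (0.0599). With the block 6 genes were lower, the same 3 and Luc7l3, Rbm5 and Sfpq, where 4.02% of all genes were called lower. The probe sets of Sfpq were split: dimmer ones stood at 0.45 (1423795_at), 0.25 (1423796_at), -0.41 (1438458_a_at) and -0.63 (1438459_x_at). Among dimmer probe sets of this list, 1426863_at of Rbmx (hnRNP G) was called lower (-1.16, adjusted p = 0.0443, and 0.0647 to 0.169 when any 1 array was left out, and 0.0654 to 0.121 with no filter, under each of the other normalizations or without trend), whereas the brightest of Rbmx stood at 0.54 and did not pass.

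**Figure D5:**
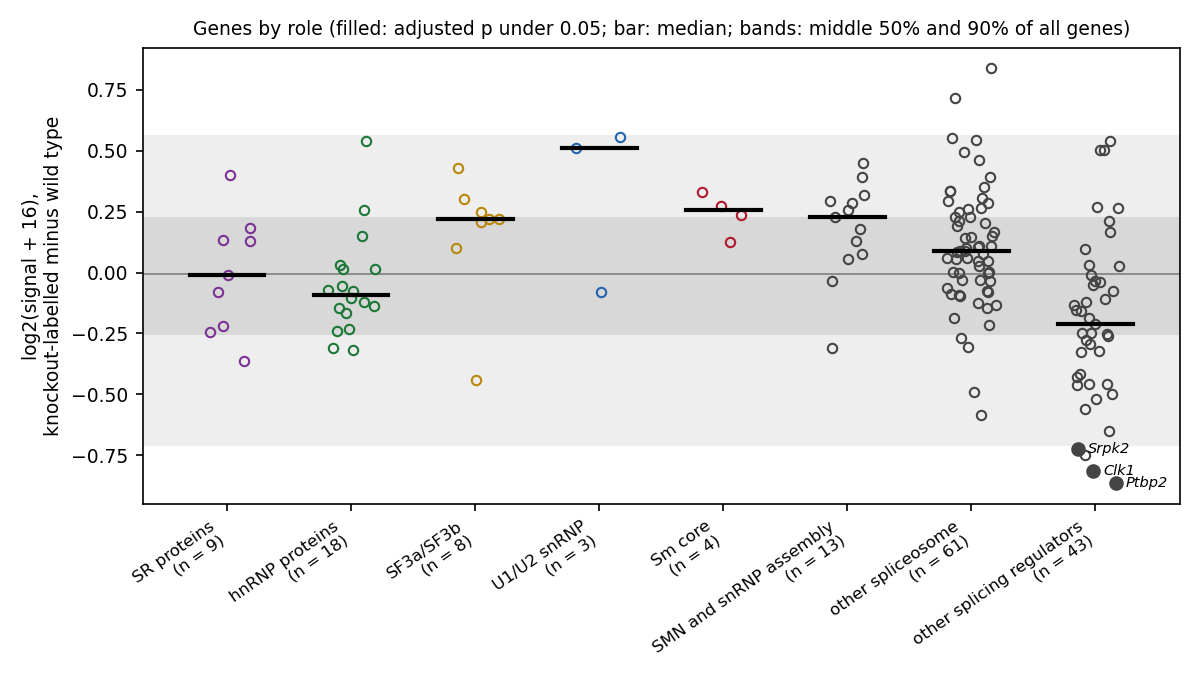
Difference of each tested gene by its brightest probe set (log2 of signal + 16, knockout-labelled minus wild type), by role and for the 3 further lists. Filled points have an adjusted p under 0.05, black bars are medians, and grey bands hold the middle 50% and 90% of all 8239 genes. The 3 filled points are Srpk2, Clk1 and Ptbp2, and the medians run from -0.21 for the other regulators to 0.51 for the U1 and U2 genes.

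U2af1l4, whose product Gfi1 binds, the other U2AF genes and Ptprc were also read. U2af1l4 read 1413, 1440 and 1529 on the knockout-labelled and 1389, 893 and 1601 on the wild-type arrays, which overlap, and did not pass (0.21 ± 0.22, limma adjusted p = 0.661). Its sign turned without wild-type array 7, the lowest value. U2af1 and U2af2, the subunits of the main U2AF heterodimer, stood at 0.34 ± 0.20 and 0.35 ± 0.23 with overlapping groups (adjusted p = 0.377 and 0.435). Ptprc, the CD45 gene, read 14460, 16388 and 14760 against 22928, 23469 and 17386. All knockout-labelled arrays were lower, by -0.47 ± 0.15 (adjusted p = 0.0956, 0.0399 with the block, and 0.0418 without wild-type array 8).

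Genes of DNA replication, a marker of cycling cells, were set beside the snRNP genes as values. Of 31 S phase genes tested, 26 lay above 0 with a median of 0.26, 0 were called (limma) and 11 had an unadjusted p under 0.05, all higher (35.5%, beside 9.41% of all genes). With the block 1 was called higher. Their summed signal was 178608 to 187071 on the knockout-labelled and 159410 to 171356 on the wild-type arrays. Their part in the values of the Sm, SF3 and SMN genes was not tested.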

How the data were processed

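The 6 samples were read on 1 array each, in 1 colour. The authors deposited 1 linear intensity per probe set and array, made with MAS5 per the submitters' processing notes. The sources used here do not give its settings, and no detection calls were used. Columns were already scaled to a trimmed mean of about 1000.3. Log2(signal + 16) was fitted with limma 3.58.1 in R 4.3.3 (lmFit, eBayes with trend, group only) over the 13575 non-control probe sets (60%) with the highest mean log2 value, 42 of the 44 genes among them, and p-values were adjusted over all of them (threshold 0.05). The pair test used the same fit without trend over all 4189 pairs. The script was tested on simulated data with noise independent between arrays. That test therefore does not cover deviations shared by samples of equal number. The 3' to 5' signal ratio was 4.30 to 6.11 for Gapdh and 1.15 to 1.47 for actin. Signals count as above background when brighter than the brightest of 27 Bacillus control probe sets on that array (100.2 to 162). Symbols come from the platform annotation, which can be old. Precision is limited by the number of arrays.

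The sample titles give the numbers 5, 7 and 8 and the group, but not what the numbers stand for. Samples of equal number had deviations from their group's mean that correlated at 0.159, 0.168 and 0.238, against -0.134 to -0.0307 for unequal numbers. Deviations within a group sum to 0, so the correlations of unequal numbers are not independent of those of equal numbers. A fit with the number as a block was run as well. Genes named were those with a probe set past the threshold, the 8 highest and 8 lowest differences, those with an unequal pair, and Sf3b1, Srsf2, Snrpn, Snrpb, Hnrnpk, Hnrnpll, Hnrnpu and Hnrnpa2b1, with U2af1, U2af2, U2af1l4, Ptprc, Gfi1 and passing genes of the further lists. Other genes named, among them Srsf1, Srsf3, Srsf4, Srsf10, Hnrnpab, Hnrnpdl, Sf3b3, Sf3b5, Snrpc and those called with the block, and the promoter motifs, were chosen after values were seen. The genes and lists were chosen with earlier results of these data known. Alternatives covered the pseudocount, filter, normalization, variance prior, block, left-out arrays and choice of probe set.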

Additional observations from a re-analysis of the deposited data

How the results depend on the processing

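No member gene or probe set passed under another pseudocount, normalization or variance prior, without a filter, or with genes as the mean of their probe sets. With the replicate block, 1 member gene (lower) and 1 higher and 3 lower member probe sets passed, 1 other spliceosome gene was higher and 6 other splicing regulators were lower. It changed no other call of the members. Among the 40% brightest probe sets, 1 member probe set was lower and 1 other spliceosome gene higher. With only plain _at probe sets 1 member gene was lower, and the U1 and U2 median, then resting on Snrpc, was -0.079. The 3 lower calls among other regulators went to 2 with quantile normalization and to 0 without the filter, with median centring and with eBayes without trend. Median centring moved the all-gene median to 0.050 and the medians of the members to 0.081, of other spliceosome genes to 0.15 and of SMN and assembly genes to 0.28. Leaving out 1 array in turn gave 0 to 2 member probe sets higher and 0 to 1 lower, 0 to 3 other regulators lower, and medians of -0.025 to 0.087 for the members and 0.16 to 0.28 for SMN and assembly genes. The difference turned sign in those fits for Hnrnpll (-0.12 to 0.18), the brightest Hnrnpu probe set (-0.27 to 0.024) and U2af1l4 (-0.030 to 0.39). Of 21 named and tested member genes, 12 had differences that moved by over 1.5 times in at least 1 of those fits. The cause of these changes was not tested. A filter by mean linear signal, added after the data were seen because the rule could be read in both ways, called 197 higher and 292 lower probe sets in place of 196 and 297, and 0 members. Over all probe sets, the calls were 69 higher and 119 lower without the filter, 57 and 124 without trend, 320 and 479 with the block, and 34 to 266 higher and 90 to 282 lower with 1 array left out. Member pairs had 0 calls in every fit that gave pairs.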
